A study of Homo sapiens with 16 samples.

Results

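Intracellular cobalamin metabolism was described by 10 genes, taken from the deposited table of 56969 Ensembl genes by their symbols (CD320, LMBRD1, ABCD4, MMACHC, MMADHC, MTR, MTRR, MMAA, MMAB and MUT). All 10 were found, each in 1 row, and all 10 passed the filter of a mean of 10 normalized counts that left 16081 genes for testing. HepG2 cells, an established human liver cancer line, had been transfected either with siRNA against HCF-1, the chromatin-bound transcriptional cofactor encoded by HCFC1 (8 libraries), or with a control siRNA (8 libraries). Both groups were grown with 10% serum, transfected again after 2 days and harvested 2 days later. The labels call the libraries of a group biological replicates without saying what separated them, so p-values measure the spread between these libraries.

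Cobalamin (vitamin B12) reaches cells bound to transcobalamin, which the receptor CD320 takes up. It leaves the lysosome through LMBRD1 and ABCD4, and MMACHC then strips its upper ligand in the cytosol, where MMADHC directs it to one of the enzymes that use it. Methionine synthase (MTR, kept active by MTRR) remakes methionine from homocysteine in the cytosol, and methylmalonyl-CoA mutase (MUT, served by the adenosyltransferase MMAB and the G protein MMAA) acts on the breakdown products of propionate in mitochondria. HCF-1 is known to act at the MMACHC promoter with the DNA-binding proteins THAP11 and ZNF143, and inherited HCFC1 defects cause a cobalamin disorder with low MMACHC.

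The promoters of MMACHC and MTR are shown because they hold the binding motif shared by ZNF143 and THAP11 or a looser form of it. The sequences are RefSeq's, build GRCh38.p14, 250 bases ending just before the annotated start, plus strand, with the motif in capitals. The expression values were made on hg19, and no coordinate links them to these sequences.
MMACHC, chr1:45500050-45500299: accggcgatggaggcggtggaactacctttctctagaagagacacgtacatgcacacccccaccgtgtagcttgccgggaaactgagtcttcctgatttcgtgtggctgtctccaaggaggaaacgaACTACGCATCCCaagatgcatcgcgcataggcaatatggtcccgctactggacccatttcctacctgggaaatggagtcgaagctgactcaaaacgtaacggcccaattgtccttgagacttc
MTR, chr1:236795031-236795280: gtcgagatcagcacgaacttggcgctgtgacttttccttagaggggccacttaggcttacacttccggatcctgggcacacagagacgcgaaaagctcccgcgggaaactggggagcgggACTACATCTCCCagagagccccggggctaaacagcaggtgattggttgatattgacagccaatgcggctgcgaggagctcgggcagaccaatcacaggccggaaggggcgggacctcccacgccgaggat

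Counting the base before the start as -1, the motif began at -123 in MMACHC and at -130 in MTR. The MTR match is a full one to the motif, searched on both strands, which 1.75% of 35116 RefSeq promoter windows hold (300 bases each, the last 50 after the start). The MMACHC match was found only with a looser form, with the sixth letter free, that includes every full match and was chosen after that window was read. It is held by 2.24% of windows. Of the 9 cobalamin genes with a RefSeq window, the other 7 had neither form, which says only that these letters are not in those windows. Among the ETS motif (CCGGAAG), the YY1 motif (AAGATGGC) and the SREBP motif (TCACNCCAC), the ETS motif was found in the windows of MTR, ABCD4 and MUT and in 10.3% of all windows. The YY1 motif, in 2.89% of windows, and the SREBP motif, in 1.13%, had no match in the cobalamin genes.

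Library depth, from reads recovered from the deposited values, was 25098840 to 43186890 reads after HCF-1 siRNA and 21030830 to 32820459 reads with control siRNA (two-sided exact permutation p = 0.0375, n = 8 libraries each). HCFC1 itself fell to 3682 ± 339.6 normalized counts after HCF-1 siRNA, against 5631 ± 670.5 with control siRNA (SD, n = 8 each), with no overlap. Of 9 hepatocyte markers 7 were called higher and 1 lower, where 18.2% of all genes tested were called higher and 18.3% lower, and their summed level ran from 864856 to 1033840 normalized counts after HCF-1 siRNA and from 728445 to 793821 with control siRNA. TTR (log2 fold change 0.63), AFP (0.58) and ALB (0.52) rose and FGB (-0.50) fell. Of 10 markers of other liver cell types 9 were found and 5 passed the filter, their summed level running from 3388 to 3787 normalized counts after HCF-1 siRNA and from 3342 to 4190 with control siRNA. With control siRNA, ACTA2 ran from 1641 to 1946 normalized counts, CD68 from 1030 to 1293 and COL1A1 from 429.9 to 950.1. VWF ran from 6.50 to 30.7 and KRT7 from 28.5 to 59.5 in the same libraries. The leukocyte gene PTPRC was listed at 0 to 1.63 normalized counts after HCF-1 siRNA and at 0 to 3.60 with control siRNA, with a median of 0 in both. Of those 5 none was called higher and 2 lower, COL1A1 (log2 fold change -0.56) and KRT7 (-1.03, adjusted p = 0.034, limma), a marker of bile duct cells that was named after its values were seen. The call of KRT7 was lost in 12 of 25 alternatives (adjusted p 0.00131 to 0.16 over them), among them edgeR, DESeq2 and those without control siRNA replicate 1, 3, 5 or 7 or without HCF-1 siRNA replicate 2, 3, 5, 6 or 8. The part of these shifts in the results below was not tested. All libraries came from 1 cell line, and in bulk RNA fewer cells expressing a gene and less RNA per cell cannot be told apart.

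After HCF-1 siRNA the cobalamin genes moved in both directions and by small amounts. ABCD4, MMACHC, MTR and MTRR rose, CD320 and MUT fell, and LMBRD1, MMADHC, MMAA and MMAB did not pass the threshold of 0.05 for the adjusted p (limma with Benjamini-Hochberg adjustment over all genes tested). Called genes were thus 6 of 10, where 36.6% of all genes tested were called, 4 of 10 higher against 18.2% of all genes, and 2 of 10 lower against 18.3%. With the filter at a mean of 50, 5412 of 12729 genes were called, 2604 higher and 2808 lower. The cobalamin genes stayed at 4 higher and 2 lower with that filter. The call of MTRR was lost in 15 of 26 alternatives. The groups did not overlap for 1 of the 10, MMACHC, and for 9.82% of all genes. The median log2 fold change was 0.11 over the 10 genes and 0.01 over all genes tested. The largest change was a log2 of 0.36, or 1.28-fold, and the median absolute log2 fold change of the 5879 called genes was also 0.36. Summed over the 10 genes, the level ran from 11346 to 11972 normalized counts after HCF-1 siRNA and from 11161 to 12027 with control siRNA, so the groups overlapped.

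**Figure D1:**
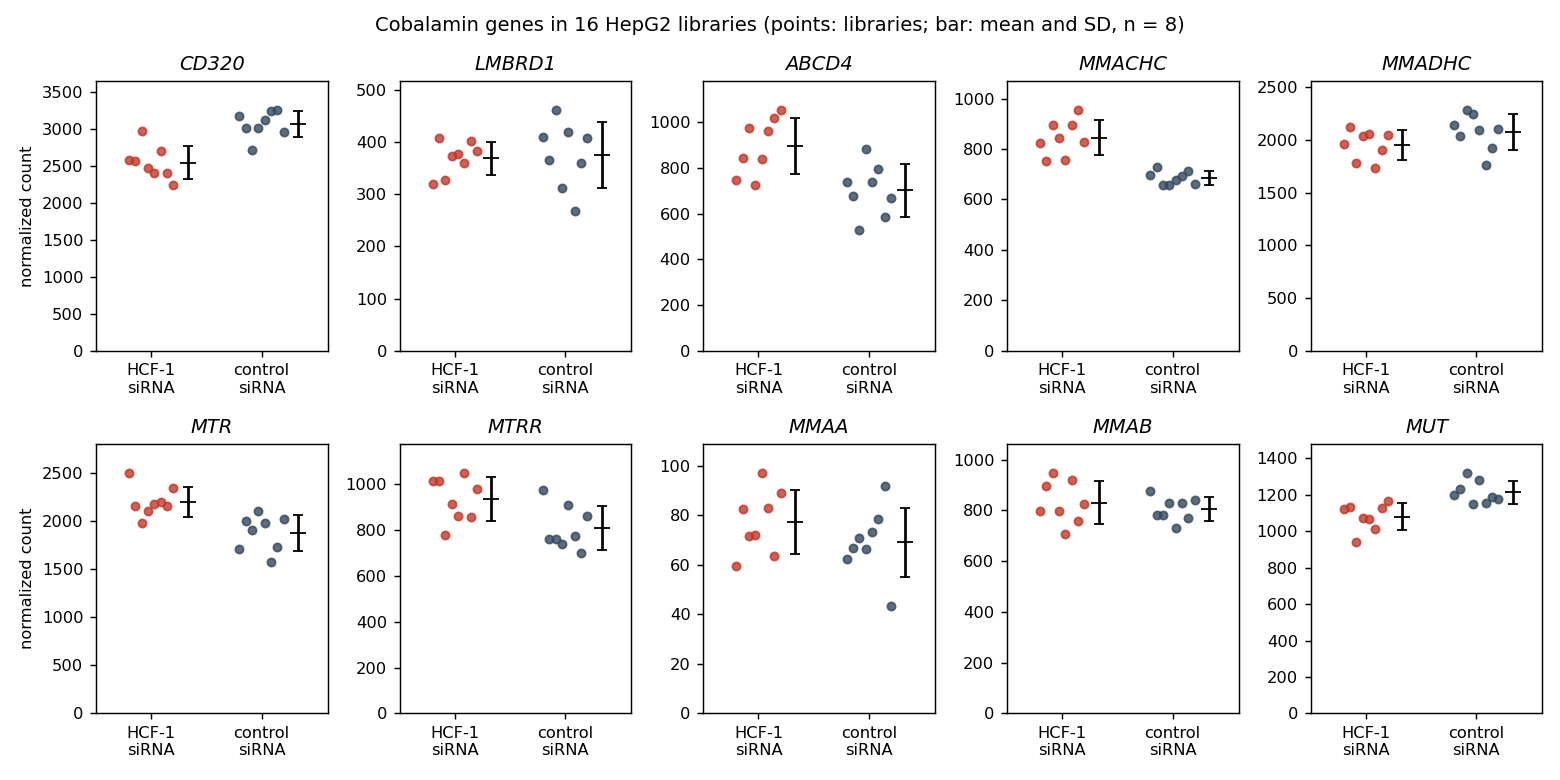
Normalized counts of the 10 cobalamin genes in each library, HCF-1 siRNA on the left of each panel and control siRNA on the right, with the mean and SD of 8 libraries beside the points. All 8 HCF-1 siRNA libraries lie above the control libraries for MMACHC, and 7 of 8 lie below them for CD320 and for MUT. For MTR 7 of 8 lie above them, the lowest of these by less than 1 read.

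CD320, the surface receptor for transcobalamin-bound cobalamin (ENSG00000167775, chromosome 19), ran from 2244 to 2974 normalized counts after HCF-1 siRNA, with a median of 2518, against 2720 to 3256 with control siRNA, with a median of 3066. The highest HCF-1 siRNA library was the only one inside the control range. Its log2 fold change was -0.27 ± 0.05 (SE; adjusted p = 7.52e-04, limma), so CD320 fell to 83.1% of the control mean.

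LMBRD1, a membrane protein of the lysosome needed for cobalamin release (ENSG00000168216, chromosome 6), ran from 319.3 to 407.6 normalized counts after HCF-1 siRNA (median 375.1) and from 266.9 to 461.4 with control siRNA (median 387.3). The HCF-1 siRNA range lay within the control range. The log2 fold change was -0.01 with a 95% interval of -0.22 to 0.20 (adjusted p = 0.941, limma).

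ABCD4, the lysosomal transporter that works with LMBRD1 (ENSG00000119688, chromosome 14), ran from 726.9 to 1055 normalized counts after HCF-1 siRNA (median 905.4) and from 527.1 to 885.9 with control siRNA (median 709.1). In 4 of 8 HCF-1 siRNA libraries it exceeded every control library, and in all 8 the control median. ABCD4 rose by a log2 fold change of 0.36 ± 0.10 (SE; adjusted p = 0.0125, limma). LMBRD1 and ABCD4, partners in one export step, therefore had different calls, but the difference between their changes was not tested. Their 95% intervals, to 0.20 for LMBRD1 and from 0.14 for ABCD4, overlapped, which alone does not show that the changes were alike.

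MMACHC, which removes the upper ligand of incoming cobalamin (ENSG00000132763, chromosome 1), ran from 754.1 to 955.4 normalized counts after HCF-1 siRNA (median 836.2) and from 656.9 to 728.5 with control siRNA (median 684.1). Every HCF-1 siRNA library was above every control library, and the HCF-1 siRNA libraries were more spread, with a CV of 8.29% against 3.90%; the CV from read counting alone would be 3.23% after HCF-1 siRNA and 3.94% with control siRNA. MMACHC rose by a log2 fold change of 0.30 ± 0.05 (SE; 95% interval 0.18 to 0.41, limma adjusted p = 3.62e-04). An exact permutation of the 16 libraries gave a two-sided p of 1.55e-04 for MMACHC, the lowest value possible with 8 libraries in each group. Every gene without overlap between the groups gets this value, so it adds nothing to the lack of overlap, which 9.82% of all genes tested had. The change was of ordinary size for these data, since 19.8% of genes tested had a larger log2 fold change and 62.6% of called genes a larger absolute one.

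MMADHC, the partner that binds MMACHC and directs cobalamin to either branch (ENSG00000168288, chromosome 2), ran from 1734 to 2120 normalized counts after HCF-1 siRNA (median 1996) and from 1761 to 2285 with control siRNA (median 2097). The ranges overlapped, with 3 of 8 control siRNA libraries above the highest HCF-1 siRNA library and 1 of 8 HCF-1 siRNA libraries below the lowest control library, and the log2 fold change was -0.08 with a 95% interval of -0.20 to 0.04 (adjusted p = 0.266, limma). Per kilobase of exon, the ratio of MMACHC to MMADHC was 0.164 ± 0.024 after HCF-1 siRNA and 0.125 ± 0.0141 with control siRNA (SD, n = 8 each). This ratio ran from 0.134 to 0.195 after HCF-1 siRNA and from 0.108 to 0.148 with control siRNA. It was chosen after the values were seen and has no test.

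Both genes of the cytosolic branch were higher. MTR, methionine synthase (ENSG00000116984, chromosome 1), ran from 1981 to 2506 normalized counts after HCF-1 siRNA (median 2169) and from 1572 to 2111 with control siRNA (median 1948). In 7 of 8 HCF-1 siRNA libraries it exceeded every control library. In HCF-1 siRNA replicate 4 it did so only just, at 2111.53 against 2111.24 in control siRNA replicate 4. The gap is smaller than 1 read in that HCF-1 siRNA library (0.686 normalized counts). MTR rose by a log2 fold change of 0.23 ± 0.06 (SE, adjusted p = 0.00728, limma). MTRR, the reductase that reactivates MTR (ENSG00000124275, chromosome 5), ran from 777.5 to 1049 normalized counts after HCF-1 siRNA (median 946.2) and from 697.6 to 975.4 with control siRNA (median 765.8). In 4 of 8 HCF-1 siRNA libraries it exceeded every control library, and its log2 fold change was 0.21 ± 0.08 (SE; adjusted p = 0.0463, limma). This call is weak: it was lost in 15 of 26 alternatives (adjusted p 0.0166 to 0.0989 over them), among them edgeR and those without control siRNA replicate 2, 3, 4, 6 or 7 or without HCF-1 siRNA replicate 1, 2, 4, 6 or 8. Per kilobase of exon, the ratio of MTRR to MTR was 1.35 ± 0.108 after HCF-1 siRNA and 1.39 ± 0.227 with control siRNA (SD, n = 8 each), with overlapping ranges.

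In the mitochondrial branch MUT was lower and neither helper passed. MUT, methylmalonyl-CoA mutase (ENSG00000146085, chromosome 6, also named MMUT), ran from 939.8 to 1165 normalized counts after HCF-1 siRNA (median 1096) and from 1149 to 1321 with control siRNA (median 1195). In 7 of 8 HCF-1 siRNA libraries it was below every control library, and MUT fell to 89% of the control mean, a log2 fold change of -0.17 ± 0.05 (SE; adjusted p = 0.0132, limma). The call held in 25 of 26 alternatives and was lost without a filter on low values (adjusted p 0.0031 to 0.0552 over the alternatives).

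MMAA, the G protein that guards the mutase (ENSG00000151611, chromosome 4), was the lowest of the 10, at 59.7 to 97.3 normalized counts after HCF-1 siRNA (median 77.4) and 43.4 to 91.9 with control siRNA (median 68.9). Its log2 fold change of 0.17 had a 95% interval of -0.13 to 0.47 (adjusted p = 0.379, limma). With as few as 51 reads in a library, read counting alone gives a CV of 10.7% after HCF-1 siRNA and 12.5% with control siRNA, and the measured CV was 16.6% and 20.1% in the same groups. The interval for MMAA includes both 0 and the log2 fold change of 0.23 seen for MTR.

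MMAB, which makes adenosylcobalamin (ENSG00000139428, chromosome 12), ran from 705.8 to 948.4 normalized counts after HCF-1 siRNA (median 810.8) and from 732 to 876.9 with control siRNA (median 804.9). The control range lay within the HCF-1 siRNA range, and the log2 fold change was 0.04 with a 95% interval of -0.09 to 0.17 (adjusted p = 0.653, limma).

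**Figure D2:**
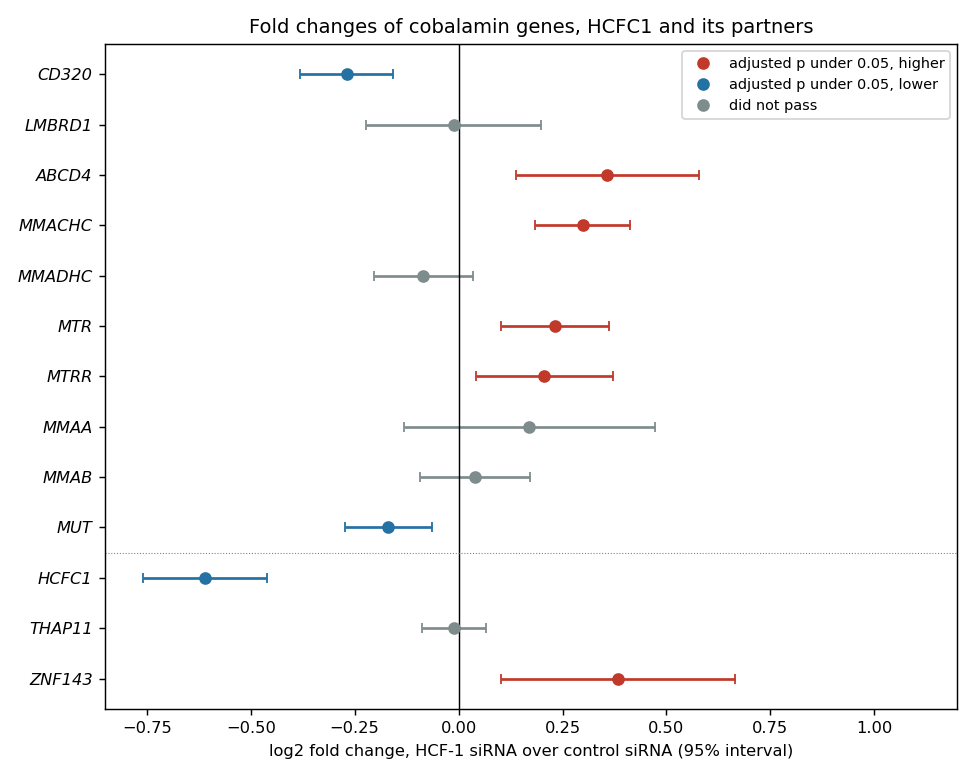
Change after HCF-1 siRNA relative to control siRNA (log2 fold change, limma, bars 95% intervals) for the 10 cobalamin genes in the order of cobalamin's route and, under the dotted line, HCFC1, THAP11 and ZNF143. Red and blue points passed at an adjusted p under 0.05, and the 10 cobalamin genes lie between -0.27 and 0.36.

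Levels were compared between genes per kilobase of exon (GENCODE 29 exon lengths by Ensembl identifier). These lengths join the exons of all transcripts in its basic set, used in these cells or not, while the counts were made on hg19. The order between genes depends on them. Before division MTR (10558 bases) was above MUT (3749 bases), at control medians of 1948 and 1195 normalized counts. CD320 was highest, at a median of 2014 normalized counts per kb after HCF-1 siRNA and 2453 with control siRNA, and MMADHC came next, at 1002 and 1053 in the same groups. MUT, MTRR, ABCD4, MTR, MMAB, MMACHC and LMBRD1 followed in the control libraries, from a median of 318.7 for MUT down to 118.5 for LMBRD1. Among these, the control ranges of MTRR and ABCD4, ABCD4 and MTR, MTR and MMAB, MMAB and MMACHC, and MMACHC and LMBRD1 overlapped. Overlap of ranges does not compare genes within the same library, and the order of these neighbours was not tested. MMAA was lowest by far, at 10.3 normalized counts per kb after HCF-1 siRNA and 9.18 with control siRNA.

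**Figure D3:**
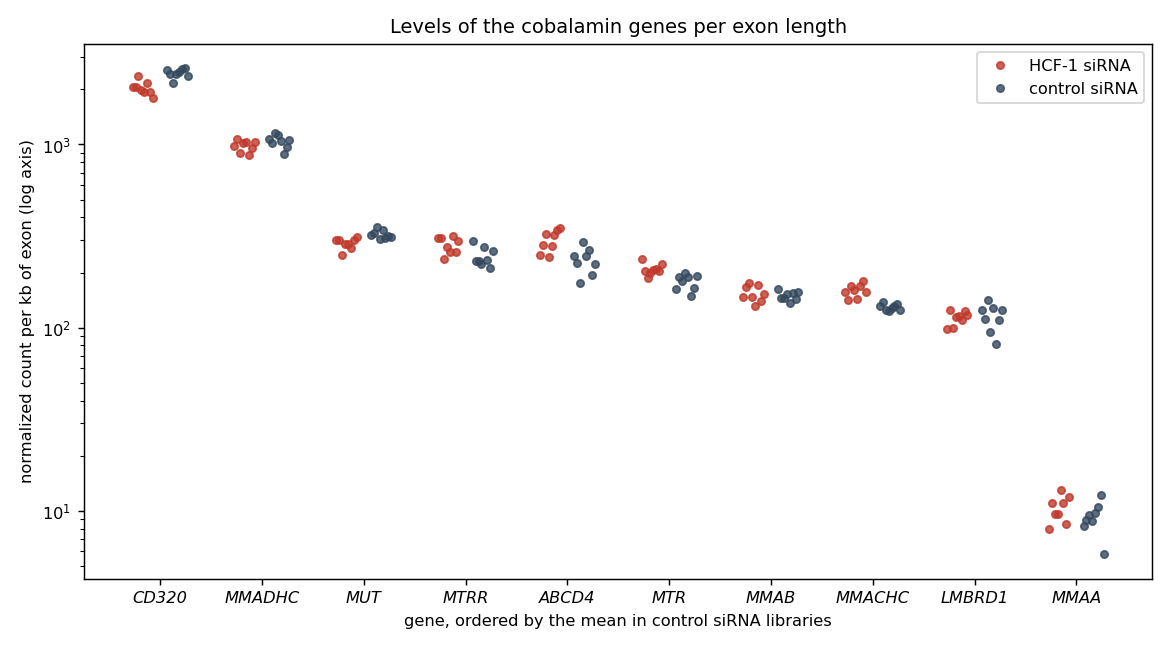
Normalized counts per kb of exon on a log axis, 8 HCF-1 siRNA libraries left and 8 control siRNA libraries right for each gene, ordered by the control mean. CD320, MMADHC and, at the low end, MMAA stand apart. In the control siRNA libraries the genes from MTRR to LMBRD1 overlap with their neighbours. After HCF-1 siRNA, ABCD4 and MTR, MTR and MMAB, and MMACHC and LMBRD1 do not overlap.

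Of the DNA-binding partners of HCF-1, ZNF143 was called higher and THAP11 did not pass; the difference between them was not tested. THAP11 ran from 1605 to 1842 normalized counts after HCF-1 siRNA and from 1661 to 1822 with control siRNA, a log2 fold change of -0.01 with a 95% interval of -0.09 to 0.07 (adjusted p = 0.833, limma). ZNF143 ran from 553.4 to 736.7 after HCF-1 siRNA and from 312.1 to 758.7 with control siRNA, a log2 fold change of 0.38 ± 0.13 (SE; adjusted p = 0.0314, limma). The call of ZNF143 was lost in 9 of 26 alternatives (adjusted p 0.00275 to 0.0629 over them), among them edgeR and those without control siRNA replicate 1, 2, 3 or 6 or without HCF-1 siRNA replicate 2, 5 or 8. Of 448 tested genes whose RefSeq window holds the full ZNF143 and THAP11 motif, 84 (18.8%) were called higher and 98 (21.9%) lower, beside 18.3% and 20.6% of the 10113 tested genes that have a window by symbol. MTR is among these genes. Of 547 tested genes whose window holds the looser form, MMACHC and MTR among them, 105 (19.2%) were called higher and 119 (21.8%) lower.

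Within a group, no relation between a cobalamin gene and the remaining HCFC1 level passed adjustment. Pearson and Spearman correlations of log2 values with HCFC1 were computed for 10 genes in 2 groups, 20 relations, each over 8 libraries. The strongest was CD320 with control siRNA, at r = -0.78 (two-sided exact permutation p = 0.0224, adjusted p = 0.448) and rho = -0.67 (exact permutation p = 0.0831, adjusted p = 0.554), and r was -0.43 without the control replicates 1 and 3, the farthest in HCFC1. For MMACHC, r was -0.50 after HCF-1 siRNA (exact permutation p = 0.207, adjusted p = 0.699; rho = -0.26, p = 0.536, adjusted p = 0.879) and -0.68 with control siRNA (exact permutation p = 0.0651, adjusted p = 0.547; rho = -0.67, p = 0.0831, adjusted p = 0.554). Without the 2 libraries farthest in HCFC1, r for MMACHC was 0.40 after HCF-1 siRNA and -0.67 with control siRNA, so the first rested on those libraries. Among all 20 relations, the 2 with a raw exact permutation p under 0.05 once those libraries were left out were MMAB (r = 0.92, p = 0.00694) and MUT (r = -0.82, p = 0.0403), both after HCF-1 siRNA over 6 libraries, where r over all 8 was 0.25 and -0.61; these p-values are not adjusted.

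Several cobalamin genes lie head to head with, or overlap, another gene. MMAB and MVK, mevalonate kinase of cholesterol synthesis, start on opposite strands 619 bases apart in GENCODE 29. MVK ran from 823.4 to 1133 normalized counts after HCF-1 siRNA (median 897.4) and from 585.2 to 806.9 with control siRNA (median 707.9), with no overlap, and rose by a log2 fold change of 0.40 ± 0.08 (SE; adjusted p = 9.70e-04, limma). MMAB beside it did not pass, and per kb the ratio of MMAB to MVK was 0.491 ± 0.0557 after HCF-1 siRNA and 0.629 ± 0.0744 with control siRNA (SD, n = 8 each), a description without a test.

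CCDC163P, which starts 26 bases from MMACHC on the other strand, averaged 169.1 ± 25.05 normalized counts after HCF-1 siRNA and 195.4 ± 29.74 with control siRNA (SD, n = 8 each), a log2 fold change of -0.21 that did not pass (adjusted p = 0.154, limma). GENCODE 29 calls it CCDC163, under another identifier than the table's. PRDX1, a peroxiredoxin gene, runs toward MMACHC from the other side. It averaged 19865 ± 932 normalized counts after HCF-1 siRNA and 20670 ± 624 with control siRNA (SD, n = 8 each), a log2 fold change of -0.06 that did not pass (adjusted p = 0.151, limma). CENPQ, a centromere protein gene head to head with MUT, averaged 308.1 ± 36.2 normalized counts after HCF-1 siRNA and 266.8 ± 35.44 with control siRNA (SD, n = 8 each), and its log2 fold change of 0.21, opposite in sign to that of MUT, did not pass (adjusted p = 0.0985, limma). FASTKD3, next to MTRR, had a log2 fold change of 0.26 and did not pass (adjusted p = 0.115, limma). The other genes with starts within 1000 bases of a member on the opposite strand, COL19A1, VRTN, C5orf49 and the antisense gene AC144449.1, were below the filter.

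The library kit was stranded, but no source used here gives the strand setting of the read counting. Whether reads over exons on opposite strands were counted apart is therefore not known. By GENCODE 29, the opposite-strand overlap was 7.16% of MMACHC exon bases with PRDX1, 5.68% of MMAB with MVK and 28.1% of MMADHC with AC144449.1, which had at most 17.96 normalized counts in any library. CD320 shared 5.84% of its exon bases with a same-strand gene.

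Genes that supply or use the same routes were listed separately. Among carriers and surface receptors, TCN2, transcobalamin itself, fell to 22.5 ± 5.03 normalized counts after HCF-1 siRNA, against 39.1 ± 16.5 with control siRNA (SD, n = 8 each), a log2 fold change of -0.71 ± 0.22 (SE; adjusted p = 0.0172, limma). TCN2 ran from 14.8 to 31.5 after HCF-1 siRNA and from 23.2 to 75.7 with control siRNA, so 3 HCF-1 siRNA libraries lay within the control range. AMN, part of the intestinal and renal uptake receptor, had a log2 fold change of 0.13 with a 95% interval of -0.24 to 0.50 (adjusted p = 0.591, limma). Its partner CUBN ran from 2.27 to 40.5 normalized counts after HCF-1 siRNA and from 3.06 to 63.9 with control siRNA, and LRP2, another endocytic receptor, from 2.44 to 125.2 after HCF-1 siRNA and from 2.04 to 35.3 with control siRNA. CUBN (adjusted p = 0.943) and LRP2 (adjusted p = 0.591) did not pass (limma), and the spread of both within a group was too wide for a change to be read. TCN1 and GIF, carriers of the saliva and the stomach, stayed under 3 normalized counts in every library and were not tested. Of the 4 tested genes of this list 1 fell and none rose, so 25% were called, beside 36.6% of all genes tested.

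Of 19 tested genes of the methionine cycle and transsulfuration, 2 rose, 4 fell and 13 missed the threshold, and their median log2 fold change was 0.04. MAT2A, which makes S-adenosylmethionine in most cells, averaged 5480 ± 306.9 normalized counts after HCF-1 siRNA and 4252 ± 175.1 with control siRNA (SD, n = 8 each) and rose by a log2 fold change of 0.37 ± 0.04 (SE; adjusted p = 1.67e-06, limma). MAT2B, its regulatory subunit, fell (-0.23 ± 0.08, adjusted p = 0.024, limma), a call lost without a filter on low values (adjusted p = 0.0535) and with the replicate number as a block (0.0677; 0.00776 to 0.0677 over 26 alternatives). PEMT, which uses S-adenosylmethionine to make phosphatidylcholine, fell (-0.41 ± 0.07, adjusted p = 3.09e-04, limma), as did ADI1 of the methionine salvage pathway (-0.22 ± 0.04, adjusted p = 3.58e-04, limma). The HCF-1 siRNA and control siRNA libraries did not overlap for MAT2A, PEMT or ADI1, beside 9.82% of all genes tested without overlap.

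Of 20 tested genes of the propionate pathway and its feeders, 4 rose, 3 fell and 13 missed the threshold, and their median log2 fold change was 0.0009. MLYCD, malonyl-CoA decarboxylase, fell (-0.40 ± 0.07, adjusted p = 2.53e-04, limma), as did BCKDHA, a subunit of the branched-chain ketoacid dehydrogenase (-0.39 ± 0.09, adjusted p = 0.00345, limma). DBT, another subunit of that complex, rose (0.31 ± 0.09, adjusted p = 0.00947, limma), as did ACADSB of isoleucine breakdown (0.37 ± 0.05, adjusted p = 1.29e-05, limma). On the steps next to MUT, PCCB, a subunit of propionyl-CoA carboxylase, fell (-0.18 ± 0.04, adjusted p = 0.00405, limma), and MCEE, the epimerase that feeds the mutase, rose (0.25 ± 0.06, adjusted p = 0.00408, limma). These last 2 genes were named after their values were seen, for their place beside MUT. In this list the HCF-1 siRNA and control siRNA libraries did not overlap for MLYCD, ACADSB or MCEE, beside 9.82% of all genes tested without overlap. The share called was 31.6% in the methionine list and 35% in the propionate list, beside 36.6% of all genes tested.

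**Figure D4:**
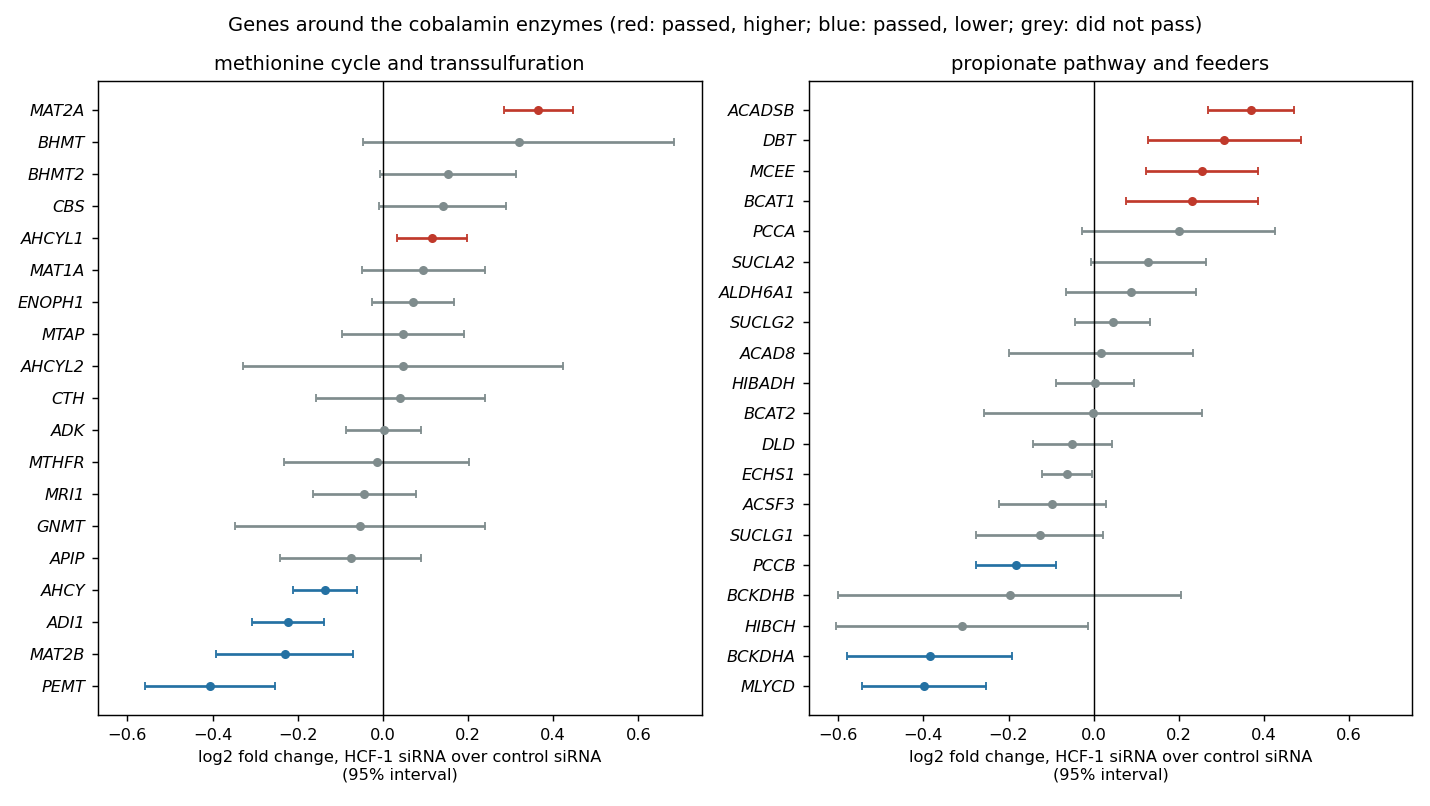
Change after HCF-1 siRNA relative to control siRNA (log2 fold change, limma, bars 95% intervals) for 19 genes of the methionine cycle and transsulfuration (left) and 20 genes of the propionate pathway and its feeders (right). Genes that passed lie on both sides of 0 in both lists, 2 higher and 4 lower on the left and 4 higher and 3 lower on the right.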

How the data were processed

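RNA-seq libraries (stranded mRNA kit) were made from total RNA of HepG2 cells, 8 after HCF-1 siRNA and 8 with control siRNA, grouped by their labels. Per the submitters' processing notes the build was hg19 and the tools included STAR 2.4.1d, cutadapt 1.4.2, DESeq2 1.16.1 and featureCounts 1.4.4, with no strand setting named. The deposited signal is a table of gene counts divided by size factors. Dividing each column by its smallest step gave whole reads for 100% of values within 0.001 read, and these reads served for depth and for the count tests; the library totals in the report bound the precision. One column header lacks a digit that its title has and was matched by the rest of its name.

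Values were tested as log2(normalized count + 1) with limma 3.58.1 (trend and robust, R 4.3.3) and Benjamini-Hochberg adjustment over all genes tested, those whose mean reached 10 normalized counts. Fold changes are on that scale, which understates those of low genes. Permutation and correlation tests were exact and two-sided, computed with numpy 2.4.6, with ranks from scipy 1.17.1. The procedure was tested on simulated counts with 200 changed genes and the same dispersion for every gene. These data have 5879 called genes and a spread that differs between genes, so that test does not give the error rate here. Alternatives were other pseudocounts, filters and scalings, array weights, a replicate block, each library left out, and, on the recovered reads, DESeq2 1.42.0 and the quasi-likelihood test of edgeR 4.0.16. Exon lengths and overlaps came from GENCODE 29 and promoters from RefSeq GRCh38.p14.

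The members and lists were chosen with earlier results of these data known. Genes named were all members, HCFC1, THAP11, ZNF143, neighbouring genes and carriers, and, of each other list, up to 4 called genes of largest absolute log2 fold change with a mean of at least 50 in either group.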

Additional observations from a re-analysis of the deposited data

Results flagged for a closer look

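Among 76 groups of values checked, 4 had a library far from the other 7, where chance gives about 1 in 20. TCN2 in control siRNA replicate 8 stood at 75.7 normalized counts, against 23.2 to 42.2 in the other control libraries. TCN2 fell after HCF-1 siRNA in every alternative that tested it, 25 in all, among them the one without that library (limma, edgeR or DESeq2 adjusted p 0.00895 to 0.0367). CUBN in control siRNA replicate 3 stood at 63.9 normalized counts, against 3.06 to 25.4 in the other control libraries, and did not pass; without that library its mean is under the filter, and it was not tested.
MCEE in HCF-1 siRNA replicate 7 stood at 452.7 normalized counts, against 362.0 to 382.7 in the other HCF-1 siRNA libraries, and MCEE was called higher in all 26 alternatives, among them the one without that library (adjusted p 3.91e-04 to 0.0262 by limma, edgeR or DESeq2). KRT7 in the same library, HCF-1 siRNA replicate 7, stood at 83.0 normalized counts, against 8.95 to 36.7 in the other HCF-1 siRNA libraries.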

How the results depend on the processing

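Over 26 alternatives 5163 to 6258 genes were called, and 5491 to 5888 with 1 library left out; edgeR called 5853 and DESeq2 6258. Of the cobalamin genes, 3 or 4 were called higher and 2 lower, except without a filter on low values, where 1 was called lower because MUT missed the threshold (adjusted p = 0.0552). MMACHC (log2 fold change 0.27 to 0.32), ABCD4 (0.30 to 0.41), MTR (0.20 to 0.26), CD320 (-0.30 to -0.24) and HCFC1 (-0.64 to -0.57) kept direction and call in all 26. LMBRD1 ran from -0.0793 to 0.0332 with 1 library left out, THAP11 from -0.0243 to 0.00419 and CUBN from -0.248 to 0.322, each changing sign, and CUBN was -0.21 with edgeR; none of these passed. Without HCF-1 siRNA replicate 3, CENPQ (adjusted p = 0.0349, range 0.0349 to 0.213) and FASTKD3 (0.0488, range 0.0488 to 0.222) passed, and PRDX1 passed with total-count scaling (0.0341, range 0.0341 to 0.277). The causes were not tested. Libraries of both groups carry numbers 1 to 8, but deviations of same-numbered libraries correlated at -0.074 to 0.098 and 1 of 8 HCF-1 siRNA libraries correlated best with its own number, so the numbers were not taken as pairs. With a replicate block 5484 genes were called, the cobalamin genes stayed at 4 higher and 2 lower, and MAT2B missed the threshold (adjusted p = 0.0677, range 0.00776 to 0.0677). Read counting alone gives MMAA a CV of 10.7% after HCF-1 siRNA and 12.5% with control siRNA.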
